A study of Arabidopsis thaliana with 12 samples.

Results

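Flower buds and leaves that grew on the scion of homografted Arabidopsis thaliana plants were compared, with 3 arrays for each organ, that is 6 of the 12 arrays of the series. The arrays were chosen by their tissue labels, Scion Flower Bud and Scion Leaf, and every probe set that does not report a hybridization control was used, which left 22746. All plants were of the ecotype Col-0 and had been grown with 16 h of light and 8 h of dark at 22 °C. In a homograft the young primary inflorescence stem, here of plants 4 to 5 weeks old, is cut off and wedged back onto its own plant, so that the part above the cut is the scion and the part below it the rootstock. Buds that had not opened and young leaves were taken from side branches of both stem parts, 10 to 20 days after the graft, and only grafts with the best growth of the scion were kept. Ungrafted plants were not analysed here, so every group in this comparison, scion and rootstock alike, had gone through the operation. The other 6 arrays, 3 of rootstock flower buds and 3 of rootstock leaves, entered the same fit and were used to show where the scion differed.

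A flower bud holds the meristem-derived organs that a leaf lacks. The identity of its sepals, petals, stamens and carpels is set by MADS box transcription factors, of which AP1 and the SEP proteins act across several whorls. Inside each young anther the tapetum feeds the developing pollen and secretes both the precursors of the sporopollenin wall, or exine, and the lipids and oleosin-like proteins of the pollen coat. A young leaf is the main site of photosynthesis, whose proteins are encoded partly in the nucleus and partly in the small genome of the plastid, and it carries much of the machinery for making glucosinolates and jasmonate.

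The deposited values are log2 values centred to a median of 0 for each probe set across all 12 arrays. They give differences between organs and no expression levels, so values of different genes are never set against each other here as levels. Where the organs do not overlap over all 12 arrays, this centring also makes the array nearest to the other organ and its counterpart mirror each other around 0. Differences are given as flower bud minus leaf on the log2 scale with the SE of the limma fit, and n was 3 arrays in each group throughout. The call of a probe set required a p of at most 0.05 after Benjamini-Hochberg adjustment over all probe sets, and a fold change of at least 2, and "higher" without further words means called. In whole organs, more cells of a type and more RNA per cell cannot be told apart.

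The labels were checked against marker genes. AP1, SEP2 and SEP3 and 5 tapetum markers (at5g07230, MS2, ACOS5, LAP5 and LAP6) were far above the leaves in every scion bud array, and the photosynthesis markers RCA and LHCB4.2 were lower in every bud array than in every leaf array, by less than 2-fold. Of the other floral identity markers, SEP1 was higher in buds by a smaller amount, and SEP4 was higher in leaves. AP3, PI, AG, RBCS1A, LHCB1.1, PSAD1, GAPB and CAT2 had no named probe set. The root markers PYK10 and EXPA7 and ACT12, a late pollen actin, were not called, while the listed markers of seeds and of the secondary wall of stems had no named probe set. Organ accounted for the first principal component, 73.03% of the variance. On it scion flower bud replicate 1 (score 47.5, against 88.9 and 78.8) and scion leaf replicate 3 (-28.1, against -86.1 and -118) stood nearest to the other organ. Scion leaf replicate 3 and rootstock leaf replicate 3 also shared the lowest scores on the second component, -70.1 and -70.6 (11.44% of the variance). The median SD between replicates of a probe set was 0.161 in scion buds and 0.269 in scion leaves.

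Between the organs of the scion, 2390 probe sets (10.5% of all tested) were higher in flower buds and 1800 (7.91%) were higher in leaves. The largest differences lay on the side of the buds. At a log2 difference of at least 3 there were 277 probe sets higher in buds and 175 higher in leaves, at least 5 was reached by 58 and 6, and at least 6 by 19 and 0. The median difference over all probe sets was -0.06. Of the 4190 called probe sets, 4001 had no overlap between the 3 bud and the 3 leaf arrays, and over all probe sets 24.3% had every bud array above every leaf array and 22.0% the reverse. Scion bud replicate 1 was the bud array nearest the leaves in 1554 of the probe sets higher in buds and in 1269 of those higher in leaves, and scion leaf replicate 3 was the leaf array nearest the buds in 1710 and 1191. With these 2 arrays left out together, a fit added after the values had been seen, 5569 probe sets were called, and 3924 of the 4190 were among them.

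**Figure D1:**
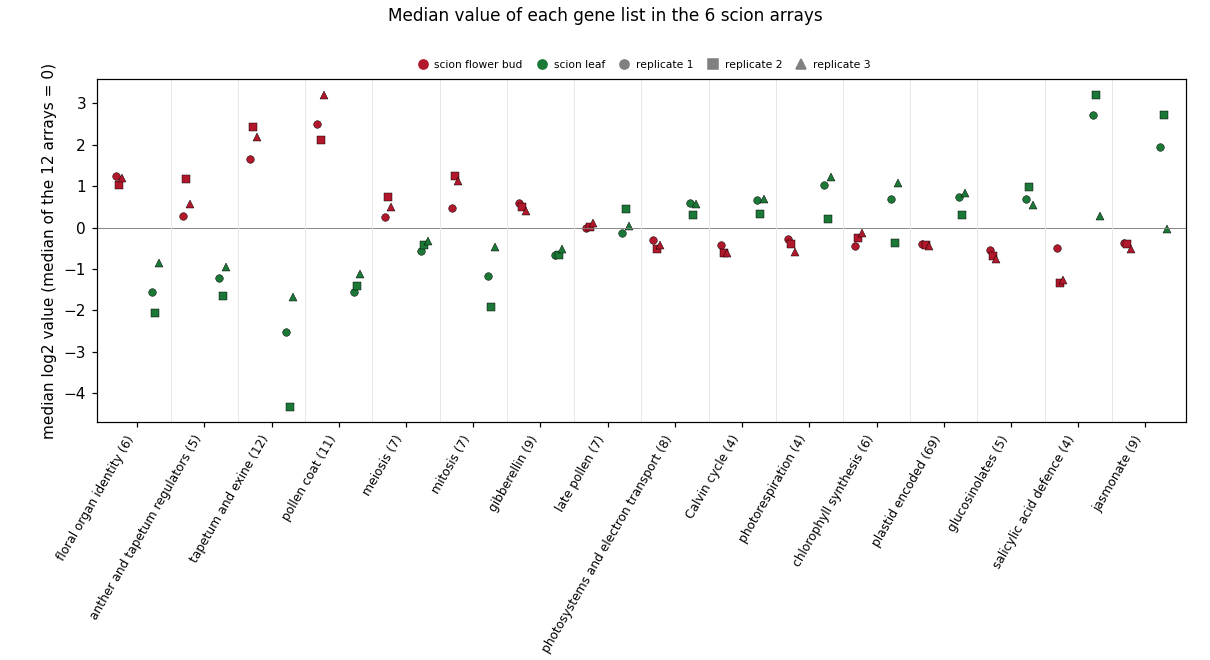
Median log2 value (y axis, median of the 12 arrays = 0) of the measured members of 16 gene lists in each of the 6 scion arrays, with the number of members in brackets on the x axis, buds in red, leaves in green and a symbol for each replicate. The buds lie above the leaves for the tapetum and exine list (1.67, 2.42 and 2.18 against -2.53, -4.33 and -1.67) and below them for salicylic acid defence (-0.50, -1.34 and -1.27 against 2.72, 3.21 and 0.28), where leaf replicate 3 stands nearest the buds.

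Of 16 listed genes of floral organ identity 6 had a named probe set, and most of these were higher in scion buds. Of 6 measured members 4 were higher in scion buds, 1 was higher in leaves and 1 was not called, with a median difference of 2.86. All but UFO are named here only through tables of the study, which chose its genes for a difference between scion and rootstock in these samples, so this count is not independent of that choice. AP1, which specifies floral meristems, sepals and petals, had the values 2.67, 2.87 and 2.95 in scion buds and -2.67, -3.25 and -2.74 in scion leaves. The organs were far apart, with a difference of 5.71 ± 0.17, or 52.4-fold (adjusted p = 2.09e-08). SEP2 and SEP3, partners of the other MADS box proteins in the floral complexes, differed by 5.33 ± 0.18 and 4.53 ± 0.54. The other two SEP genes moved less and in opposite directions. SEP1 was 0.56, 0.40 and 0.39 in buds and -0.58, -1.46 and -0.17 in leaves, a difference of 1.19 ± 0.34 (adjusted p = 0.0232), and it lost its call without any of the 3 scion bud arrays or without scion leaf replicate 2 (adjusted p from 0.0559 to 0.0692). SEP4 was 0.94, -0.31 and -0.03 in buds and 1.29, 1.29 and 1.12 in leaves, so that it was higher in leaves by 2.05-fold (adjusted p = 0.0142), a call that ended without scion bud replicate 2 (adjusted p = 0.0573) or 3 (0.0567). UFO, an F-box cofactor of petal and stamen identity, differed by 0.22 ± 0.17 and was not called.

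Regulators of the meristem, petals and carpels gave 4 of 8 measured members higher in buds and none higher in leaves, with a median difference of 1.06. SPL, also known as SPOROCYTELESS, which starts the formation of the sporogenous cells, was 1.31, 1.66 and 2.06 in buds and -1.80, -2.13 and -1.31 in leaves. Its difference was 3.42 ± 0.26 (adjusted p = 9.09e-06), the largest of the list. SPT, a bHLH protein of the carpel margin, followed with 2.49 ± 0.26, then JAG, a zinc finger protein of lateral organ growth, with 1.71 ± 0.20 and PTL, a trihelix protein of the perianth, with 1.1 ± 0.14, which fell to a fold of 1.99 without scion leaf replicate 2. The ovule gene INO passed the p threshold at 0.70 ± 0.17 but not the fold threshold, and CLV3, the peptide of the shoot meristem, differed by -0.19 ± 0.19. Of 5 flowering time genes, TFL1, which holds back floral fate in the inflorescence meristem, was higher in buds by 1.55 ± 0.31 and SOC1, which promotes flowering, was higher in leaves by 3.93-fold, with -0.56, -1.08 and -0.95 in buds and 1.18, 1.59 and 0.56 in leaves. Both of these are named only through the tables of the study, and the other 3 (GI, AGL24 and FD) were not called.

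The measured regulators of the anther were higher in buds, with 5 of 14 listed genes having a named probe set. All 4 regulators of the anther and tapetum named by the array annotation were called (median 2.50), as was TDF1, named by the study (median of the 5 then 1.57). AMS, the bHLH factor that switches on much of the tapetal programme, was 2.22, 2.51 and 2.82 in buds and -2.85, -2.95 and -2.22 in leaves. The organs were far apart in every array, and the difference was 5.19 ± 0.21 (36.5-fold, adjusted p = 1.3e-07). EMS1, the receptor kinase that specifies the tapetum, differed by 3.43 ± 0.27. The glutaredoxins ROXY2 and ROXY1, which act in early anther lobes, differed by 1.57 ± 0.34 and 1.06 ± 0.22, and the MYB factor TDF1 by 1.16 ± 0.25. ROXY1 fell below 2-fold without scion bud replicate 2 (1.92) or scion leaf replicate 1 (1.78), and TDF1 without scion bud replicate 2 (1.87).

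Every measured gene of the tapetum and of exine synthesis was higher in scion buds, 3 of 3 named by the annotation with a median of 6.03 and 12 of 12 with the genes named by the study, with a median of 5.21. These 12 kept their call in each of the 12 fits that left out 1 array. The locus at5g07230, which the study describes as a protease inhibitor, was 3.28, 3.80 and 3.0 in buds and -3.71, -4.29 and -3.0 in leaves, a difference of 7.02 ± 0.30 or 130-fold (adjusted p = 1.6e-07). SHT, which makes the spermidine conjugates of the pollen wall, differed by 6.03 ± 0.18. RPG1, the sugar transporter SWEET8 that is needed for a normal exine, was 3.12, 2.49 and 3.02 in buds against -3.02, -2.97 and -2.23 in leaves, a difference of 5.62 ± 0.26. The leaf arrays ran from -4.29 to -3.0 for at5g07230 and from -3.02 to -2.23 for SWEET8.

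The enzymes that build sporopollenin precursors in order, from the acyl-CoA synthetase ACOS5 through the fatty acid hydroxylases CYP703A2 and CYP704B1 and the polyketide synthases LAP5 and LAP6 to the reductase TKPR1, spread much more among the leaves. ACOS5 was 1.34, 2.05 and 1.79 in buds and -2.37, -4.71 and -1.34 in leaves, a difference of 4.53 ± 0.65. LAP5 was 1.03, 1.65 and 1.73 in buds and -1.96, -4.37 and -1.03 in leaves, a difference of 3.92 ± 0.65 (adjusted p = 0.00125). Scion leaf replicate 2 was the lowest leaf array and scion leaf replicate 3 the highest in both, as they were for MS2, the fatty acyl reductase of the exine (-2.74, -5.29 and -2.13 in leaves and 2.13, 2.89 and 2.15 in buds). CYP704B1 differed by 5.37 ± 0.62, CYP703A2 by 4.95 ± 0.62, LAP6 by 3.46 ± 0.66 and TKPR1 by 3.13 ± 0.53. Among the remaining members MEE48 differed by 5.06 ± 0.88 and the dehydrogenase TA1 of the tapetum by 5.40 ± 0.47.

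The pollen coat is made of extracellular lipases, the EXL proteins, and of oleosin-like glycine-rich proteins, the GRP proteins. Of 11 measured members 10 were higher in scion buds, with a median of 3.87, and 7 of these 10 are named only through the study. GRP19 was 4.41, 3.99 and 5.04 in buds and -3.32, -3.22 and -2.91 in leaves, which gave 7.63 ± 0.35, a 198-fold difference (adjusted p = 2.79e-07). GRP20 was 4.23, 3.51 and 4.92 in buds and -1.67, -1.66 and -2.05 in leaves (6.01 ± 0.41). GRP17, a major protein of the coat, was 3.36, 3.58 and 4.25 against -1.69, -1.4 and -1.12 (5.13 ± 0.32). In these genes scion bud replicate 3 was the highest bud array, and the leaf arrays lay close together. EXL6 and EXL4 differed by 5.76 ± 0.28 and 5.54 ± 0.38 and EXL5, which the annotation also covers, by 3.87 ± 0.28. Among the neighbouring genes at1g75880 and at1g75890 were higher in buds by 2.98 ± 0.31 and 1.72 ± 0.17, and at1g75900 was not called (-0.07 ± 0.20). All 10 calls held in each fit without 1 array.

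Genes of late pollen did not share this difference. None of 7 was called, and the median was -0.05. ACT12 was 0.88, 0.16 and 0.49 in buds and -0.25, 0.17 and -0.06 in leaves (0.55 ± 0.19), the generative cell histone MGH3 differed by -0.05 ± 0.16, and the pollen tube receptor kinases ANX1 and ANX2 by -0.22 ± 0.18 and -0.41 ± 0.14. ACT11 had the largest difference of the list, 1.23 ± 0.90, with scion leaf replicate 2 at -3.21 and the other leaves at -0.27 and 0.54.

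**Figure D2:**
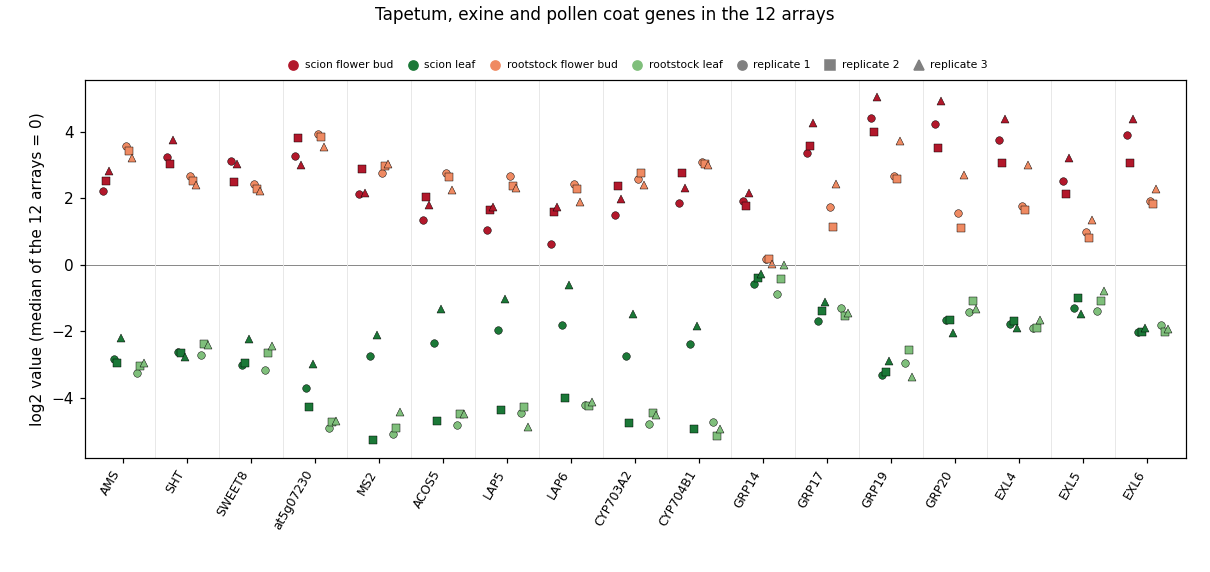
Log2 values (y axis, median of the 12 arrays = 0) of 17 genes of the tapetum, exine and pollen coat in all 12 arrays, with scion in dark and rootstock in light colours, buds in red and leaves in green. From AMS to CYP704B1 the rootstock buds lie beside or above the scion buds in most genes, and from GRP14 to EXL6 the scion buds lie above them, as for GRP19 with 4.41, 3.99 and 5.04 against 2.66, 2.58 and 3.71.

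The measured genes of mitosis and DNA replication were higher in buds, and part of the meiosis genes were. Only 7 of 36 listed mitosis genes, 2 of 30 DNA replication genes and 7 of 23 meiosis genes had a named probe set. All 5 mitotic genes named by the annotation were called (median 2.08), as were CYCB1;3 and MAP65-3, named by the study. The kinase AUR2, which acts at the spindle and the cell plate, was 0.78, 1.48 and 1.22 in buds and -1.51, -2.29 and -0.78 in leaves, a difference of 2.68 ± 0.43 (adjusted p = 0.00102). The kinesin of the phragmoplast PAKRP1L was 0.57, 1.24 and 1.16 in buds and -1.16, -1.52 and -0.57 in leaves (2.08 ± 0.30), and MAP65-3, which bundles the microtubules there, differed by 2.13 ± 0.36. In each of these genes scion bud replicate 1 was the lowest bud array and scion leaf replicate 3 the highest leaf array. AUR1 (2.17 ± 0.55) missed the p threshold without scion bud replicate 2 (adjusted p = 0.0503). Both measured DNA replication genes, the helicase subunit MCM7 (3.38 ± 0.81) and the polymerase subunit ICU2 (1.96 ± 0.47), were also higher in buds. Of 7 meiosis genes 4 were higher in buds and 3 were not called, and 2 were called without scion bud replicate 2. DMC1, the recombinase of meiosis, named by the study, was 0.34, 1.21 and 1.03 in buds and -1.67, -2.74 and -0.34 in leaves, and differed by 2.44 ± 0.53. MND1, its cofactor, differed by 1.61 ± 0.34. The axis protein ZYP1B (1.09 ± 0.19) and the helicase MER3 (1.04 ± 0.21) lay just above the fold threshold, and without scion bud replicate 2 they were at 1.94-fold and 1.98-fold. MER3 also fell below it without scion bud replicate 3 (1.89) or scion leaf replicate 1 (1.95).

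By the rule for named genes, the 10 largest bud-side differences among probe sets with 1 annotated gene and no overlap between the arrays ran from 6.16 to 8.23. The top locus at1g68875 was 4.58, 3.81 and 4.98 in buds and -3.73, -3.78 and -3.80 in leaves, 299-fold apart (8.23 ± 0.23, adjusted p = 2.09e-08). ATA27, a beta-glucosidase of the anther, was 4.35, 3.64 and 4.85 against -3.24, -3.38 and -3.34 (7.60 ± 0.25). Both repeat the order of the bud arrays seen for GRP19, with replicate 3 the highest and replicate 2 the lowest. Next came at1g66850 (7.56), at1g02813 (7.47), at5g07230 (7.02) and at1g47980 (6.96). The last of the 10 were at3g23770 (6.55), at5g17340 (6.47, described by the study as a putative membrane lipoprotein), at5g62080 (6.36, a protease inhibitor in the same tables) and at5g48210 (6.16). All 10 were called in the rootstock as well, with differences from 5.37 to 9.36, and none lost its call in the scion when an array was left out. As the rule took only called genes without overlap in these scion arrays, the kept calls are no independent support.

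Most measured nuclear genes of photosynthesis were lower in buds by amounts close to the fold threshold. Of 8 photosystem and electron transport genes 2 were called and the median was -0.90, with 7 of the 8 lower in every bud array than in every leaf array. PSAN, a lumenal subunit of photosystem I, was -0.42, -0.62 and -0.46 in buds and 0.74, 0.31 and 0.63 in leaves, a 2.08-fold difference (adjusted p = 0.000384). ATPC1, the gamma subunit of the plastid ATP synthase, was 2.02-fold higher in leaves. PSAE1, PSBY and LHCB4.2 were also lower in buds but at 1.91, 1.91 and 1.83-fold, so that small shifts decided the count. It was 4 without scion bud replicate 1, and the calls of PSAN and ATPC1 ended without scion bud replicate 2 or scion leaf replicate 1 (1.95 to 2-fold), that of ATPC1 also without scion leaf replicate 3 (1.93). LHCB4.3, a close relative of LHCB4.2, went the other way at 0.70 ± 0.25 and was not called.

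In the Calvin cycle, PRK, which makes the acceptor for carbon dioxide, was -0.38, -0.50 and -0.26 in buds and 0.84, 0.41 and 1.01 in leaves, and was 2.2-fold higher in leaves (adjusted p = 0.00108). CP12-2, its regulator, named by the study, was 2.93-fold higher in leaves. SBPASE lay at the fold threshold, and its call ended without scion bud replicate 1 or 3 or scion leaf replicate 1 or 3 (1.78 to 2-fold). RCA, the activase of Rubisco, was 1.87-fold apart and was not called. Photorespiration gave 3 of 4 genes higher in leaves, with HPR, the peroxisomal hydroxypyruvate reductase, at -0.29, -0.72 and -0.53 in buds and 0.72, 0.52 and 0.72 in leaves (2.24-fold). The glycolate transporter LrgB was 2.4-fold and at1g80380 2.52-fold higher in leaves. None of 6 chlorophyll synthesis genes was called, and all 6 were negative (median -0.66). Without scion leaf replicate 2 3 genes were higher in leaves (median -1.01), and without scion leaf replicate 3 the median was -0.37. CHLI2 was -0.50, -0.40 and -0.21 in buds and 1.1, -0.36 and 1.88 in leaves, and scion leaf replicate 2 lay among or below the bud arrays in each of the 6.

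Transcripts of the plastid genome had a clearer difference. Of 69 measured genes 33 were higher in leaves and none in buds, with a median of -1.08, and 55 had no overlap between the organs. The genes of the photosynthetic complexes led. Among 35 genes of the photosystems, the cytochrome complex, the ATP synthase and the large subunit of Rubisco 20 were called (median -1.22), as were 8 of 10 genes of the NDH complex, which carries cyclic electron flow (median -1.42). Of 19 genes for plastid ribosomal proteins and RNA polymerase 3 were called (median -0.40), and 6 without scion leaf replicate 2 (median -0.69), while the median was -0.25 without scion leaf replicate 1. The division of the plastid genes into these classes was made after values of these genes had been seen.

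The reaction centre gene psbA was -1.2, -1.55 and -1.04 in scion buds and 1.07, 1.84 and 1.04 in scion leaves, a 5.98-fold difference (adjusted p = 0.000239). The antenna gene psbB was -1.43, -1.44 and -0.95 against 1.07, 0.95 and 1.60 (5.58-fold), and ndhK was -1.19, -1.50 and -0.91 against 0.91, 0.93 and 1.34 (4.8-fold). In these 3 genes every bud array lay well below every leaf array. The gene rbcL was 2.64-fold higher in leaves. Other members of the same complexes differed little, such as psaB (1.27-fold), atpE (1.25-fold) and psbM (1.22-fold), none of them called. In the class of ribosomal proteins and polymerase, rps14 had the largest difference, 4.83-fold (adjusted p = 5.15e-06), and rpl22 differed by 0.11 ± 0.35. The 16 measured genes of the mitochondrial genome gave no call, with a median of -0.22, but without scion leaf replicate 3 there were 3 higher in leaves and 1 higher in buds (median -0.36).

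**Figure D3:**
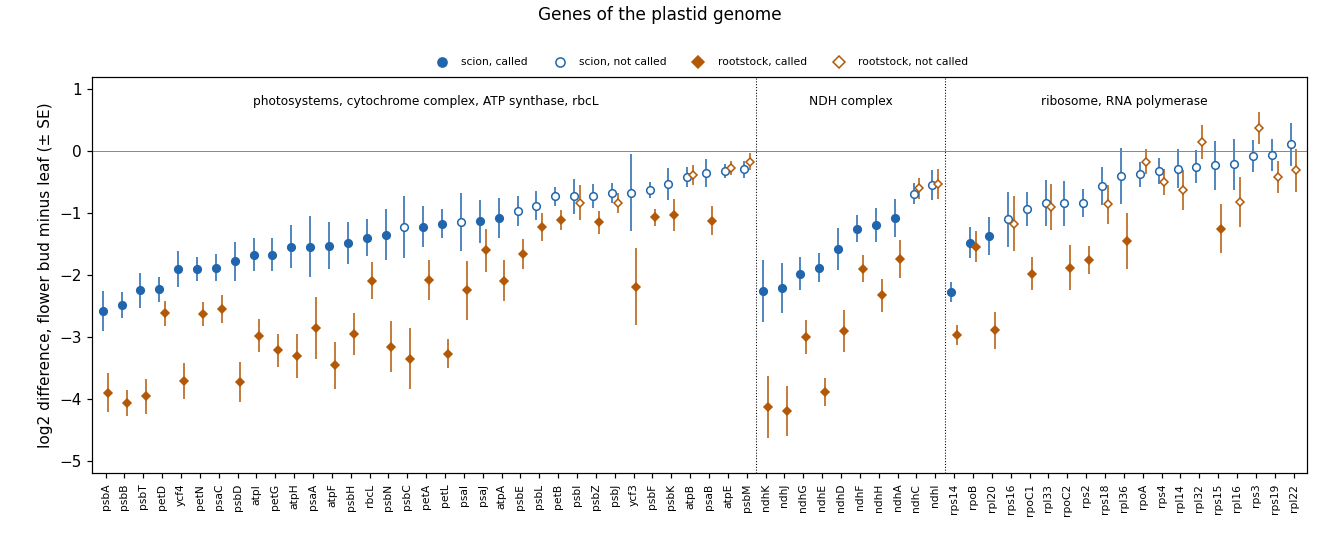
Log2 difference, flower bud minus leaf, with its SE (y axis) for each measured gene of 3 classes of the plastid genome (x axis), in the scion (circles) and the rootstock (diamonds), filled where called. Most genes lie below 0 in both stem parts, with the rootstock lower, as for psbA (-2.58 in the scion and -3.90 in the rootstock), and the ribosomal genes at the right lie nearest to 0. In the first class the median value in rootstock bud replicate 3 (-0.56) is near those in the scion buds (-0.51, -0.61 and -0.49). Those in rootstock bud replicates 1 and 2 are lower (-1.84 and -1.72).

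The largest leaf-side differences were smaller than those of the buds and less even. By the same rule the top 10 ran from -4.03 to -5.56. The first, at5g38710, was 4.58, 5.56 and 1.25 in leaves and -1.25, -2.19 and -1.86 in buds, 47.3-fold apart with an SE of 1.11 (adjusted p = 0.00347). The second, at1g66100, had a different order among the leaves, 3.62, 1.70 and 3.65, with -1.70, -2.41 and -2.13 in buds (33.6-fold, SE 0.54). The others were at3g51660 (24.2-fold), BCAT4 (22.9-fold), at1g21550 (21.2-fold), at5g05600 (20.9-fold), at1g19020 (20.4-fold), at1g29660 (17.3-fold), at5g24210 (17.1-fold) and the calmodulin-like gene CML38 (16.4-fold). In 8 of the 10, all but at1g66100 and at1g29660, scion leaf replicate 3 was the lowest leaf array. None of the 10 lost its call when an array was left out, but the rule took only called genes without overlap in these same arrays. Outside the 10, at1g64360 and at5g52760 lost theirs without scion flower bud replicate 2 or 3 or scion leaf replicate 1 or 2. In those limma fits they were 12.3-fold to 27-fold higher in leaves (adjusted p from 0.0678 to 0.0862).

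Glucosinolates are the sulphur-rich defence compounds of the family, and their synthesis from methionine starts with BCAT4 and MAM1, which lengthen the side chain. BCAT4 was 2.77, 3.86 and 0.96 in leaves and -0.96, -2.54 and -2.47 in buds (22.9-fold, adjusted p = 0.000946). MAM1, named by the study, was 2.02, 3.01 and 0.55 in leaves and -0.55, -2.96 and -2.90 in buds (16-fold). In both genes scion leaf replicate 3 and scion bud replicate 1 were the arrays nearest each other. UGT74B1 and SOT18, which add the glucose and the sulphate of the core, were higher in leaves by 2.35-fold and 2.15-fold. UGT74B1 missed the p threshold without scion bud replicate 3 (adjusted p = 0.0528) or scion leaf replicate 2 (0.0511), and SOT18 the fold threshold without scion bud replicate 2 (1.98) or scion leaf replicate 2 (1.95). FMOGS-OX2, which oxidizes the side chain, was higher in buds, at 1.95, 1.91 and 0.79 against 0.34, 0.10 and 0.30 (2.47-fold).

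Of 18 listed defence genes of the salicylic acid pathway 4 had a named probe set. All 4 were higher in leaves, with a median of -3.22, and 3 of the 4 are named through the study. PR5, a thaumatin-like pathogenesis protein, was 3.17, 4.22 and -0.71 in leaves and -1.27, -2.01 and -2.31 in buds. Leaf replicate 3 lay nearly 4 log2 units below the other leaves, and the difference was -4.09 ± 1.2 (17-fold, adjusted p = 0.0243). PBS3, which makes the precursor of salicylic acid, was 3.92, 4.26 and 0.35 in leaves and -0.52, -0.38 and -0.68 in buds (10.4-fold, adjusted p = 0.0309). The calls of PR5 and PBS3 ended without scion bud replicate 2 or 3 or scion leaf replicate 1 or 2, with adjusted p from 0.0701 to 0.107, and that of PBS3 also without scion bud replicate 1 (adjusted p = 0.0682). ACD6, an ankyrin protein of the same pathway, was 2.27, 2.21 and 0.43 in leaves and -0.43, -2.04 and -1.85 in buds (8.42-fold) and kept its call in all 12 fits. SAG101 was 3.65-fold higher in leaves and missed the threshold without scion leaf replicate 1 (adjusted p = 0.0544).

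Jasmonate genes divided. Of 9 measured members 4 were higher in leaves, 2 were higher in buds and 3 were not called, and 5 of the 9 are named only through the study. All 4 leaf calls are among these 5. Of the 4 members named by the annotation 1 was higher in buds and 3 were not called (median -1.86). With 1 array left out, 0 to 3 of them were higher in leaves. The lipoxygenases LOX3 and LOX4, which begin the synthesis, were higher in leaves by 14.3-fold and 15-fold. LOX4 was 3.61, 3.70 and 0.82 in leaves and -1.34, -1.45 and -0.82 in buds. AOS, the next enzyme, was 3.23, 4.01 and 0.66 in leaves and -0.66, -0.86 and -1.32 in buds (12-fold, adjusted p = 0.00626). OPR3, a later step, was 1.95, 2.35 and -0.04 in leaves and -0.14, 0.04 and -0.52 in buds. These arrays overlapped, and the call of OPR3 (3.09-fold, adjusted p = 0.0441) held in only 3 of the 12 fits without 1 array, being lost without any scion array other than leaf replicate 3 and without any rootstock bud array or rootstock leaf replicate 1 (adjusted p from 0.0585 to 0.143). AOC4, an allene oxide cyclase, went the other way, at 0.51, 0.76 and 0.44 in buds and -1.19, -1.36 and -1.49 in leaves (3.78-fold, adjusted p = 0.000124). THI2.1, a thionin induced by jasmonate, was higher in buds by 11.2-fold, with 1.37, 1.99 and 0.15 in buds and -1.62, -0.15 and -5.19 in leaves, and lost its call without scion bud replicate 1 (adjusted p = 0.0571) or 2 (0.0829). The defensin gene PDF1.2A was 2.17, 3.87 and -0.19 in leaves and -0.34, -0.39 and -0.44 in buds and was not called (adjusted p = 0.0598).

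Among senescence genes, the transcription factors WRKY53 and WRKY6 were called higher in leaves. WRKY53 was 2.72, 2.97 and -0.51 in leaves and -0.48, -0.92 and -1.30 in buds, so that leaf replicate 3 lay below a bud array (6.18-fold, adjusted p = 0.0255). WRKY6 overlapped in the same way (4.62-fold, adjusted p = 0.034). Both calls ended without scion bud replicate 2 or 3 or scion leaf replicate 1 or 2 (adjusted p from 0.0695 to 0.118). ORE1, a NAC factor of leaf ageing, was 2.2, -0.89 and -0.11 in buds and 1.19, 1.4 and 0.11 in leaves and was not called. The drop in leaf replicate 3 ran through the salicylic acid, jasmonate and senescence lists. The list medians in scion leaf replicate 3 were 0.28, -0.04 and -0.41, against 2.72 and 3.21, 1.95 and 2.72, and 1.61 and 1.76 in the other scion leaves, and rootstock leaf replicate 3 was likewise the lowest rootstock leaf (1.56, 1.39 and -0.02). Without scion leaf replicate 3 the jasmonate list had 7 members higher in leaves, and the salicylic acid list still had 4. What set leaf replicate 3 of either stem part apart, and its part in these differences, was not tested.

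**Figure D4:**
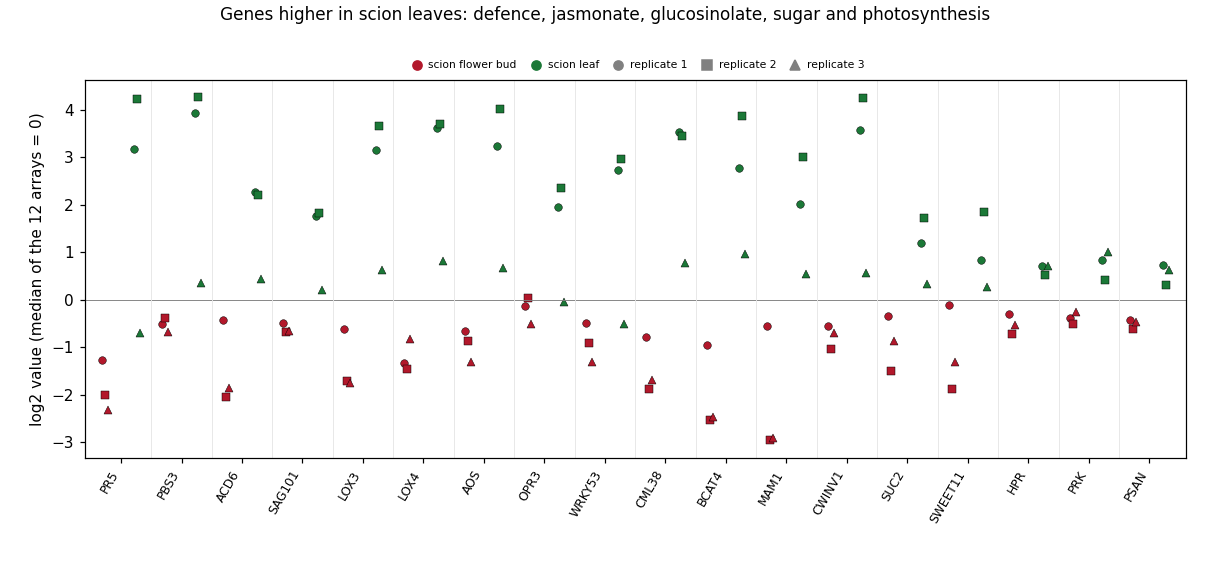
Log2 values (y axis, median of the 12 arrays = 0) of 18 genes of defence, jasmonate, glucosinolate, sugar and photosynthesis in the 3 scion bud arrays (red) and the 3 scion leaf arrays (green). Leaf replicate 3 (triangle) lies far below the other leaves from PR5 to CWINV1, as for AOS with 3.23, 4.01 and 0.66, and it lies with them for HPR, PRK and PSAN.

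Genes for moving sugar pointed both ways. Of 12 measured genes of sugar transport and invertases 3 were higher in buds and 3 in leaves, with 6 of the 12 named only through the study. STP2, a hexose carrier, was 3.67, 1.67 and 3.78 in buds and -2.16, -1.92 and -1.67 in leaves (31.1-fold, adjusted p = 3.03e-05). CWINV1, a cell wall invertase, was 3.57, 4.24 and 0.56 in leaves and -0.56, -1.03 and -0.70 in buds (11.8-fold). SUC2, the sucrose pump that loads the phloem, was 1.19, 1.73 and 0.34 in leaves and -0.34, -1.49 and -0.87 in buds (3.96-fold). The list changed with single arrays: without scion leaf replicate 3 it had 6 members higher in leaves, and 7 when scion bud replicate 1 was left out as well.

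The SWEET family, carriers that let sugars leave cells and vacuoles, was followed as a whole after its values had been seen. Of 16 members named by the annotation 6 were higher in scion buds and 2 in scion leaves. On the side of the buds stood SWEET8, given above, then SWEET10 with 1.36, 1.73 and 2.45 in buds and -2.29, -2.67 and -1.36 in leaves (15.5-fold, adjusted p = 5.45e-05), SWEET3 (12.6-fold) and SWEET7 (9.56-fold). SWEET1 and SWEET15 were 3.37-fold and 2.87-fold higher in buds, the latter not without scion bud replicate 2 (adjusted p = 0.0511). SWEET16, a carrier of the vacuole, was 1.34, 0.74 and 1.52 in leaves and -0.88, -0.89 and -0.74 in buds (4.1-fold). SWEET11, which acts with SUC2 in phloem loading, was 0.83, 1.85 and 0.27 in leaves and -0.12, -1.87 and -1.30 in buds (4.24-fold), and it too missed the threshold without scion bud replicate 2 (adjusted p = 0.0591). SWEET9, the carrier of the nectary, differed by -0.13 ± 0.15.

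**Figure D5:**
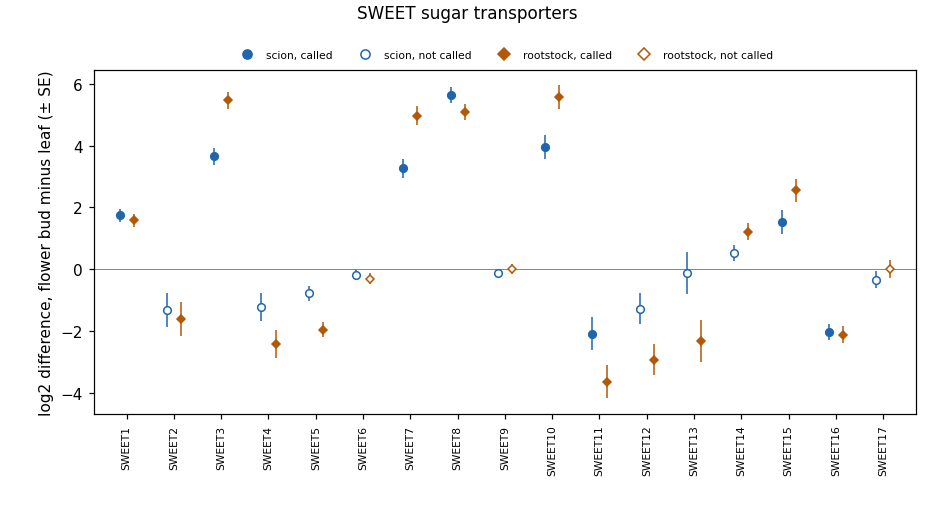
Log2 difference, flower bud minus leaf, with its SE (y axis) of each measured SWEET gene (x axis), SWEET12 being named by the study, in the scion (circles) and the rootstock (diamonds), filled where called. SWEET8 has the highest scion value (5.62) and SWEET11 the lowest (-2.08).

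Hormone genes were mostly named through the study, so their counts are not independent of its choice. Of 9 gibberellin genes 6 were higher in buds, all of them named through the study. The 2 named by the annotation were not called (median 0.06). KS, an early enzyme of the pathway, was 0.70, 0.81 and 0.92 in buds and -0.66, -0.94 and -0.50 in leaves (2.85-fold), and KO, the next one, was 2.32-fold higher, though not without scion leaf replicate 1 (1.97). GA2OX1, which inactivates the hormone, was 3.14-fold and the responsive gene GASA4 6.02-fold higher in buds, the latter not without scion bud replicate 2 (adjusted p = 0.0514). With 1 array left out, between 3 and 6 of these genes were called.

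Of 14 genes of abscisic acid and drought response only LEA7, a late embryogenesis abundant protein, was called. Over all probe sets 10.5% were higher in buds and 7.91% in leaves. LEA7 was 4.44, 2.47 and 3.11 in buds and 1.01, 2.06 and -0.06 in leaves (5.03-fold, adjusted p = 0.0101). In this list scion bud replicate 1 was the highest bud array in all 14 members, with a list median of 1.51 against -0.06 and 0.33. RAB18, a dehydrin, was 2.68, -0.28 and 1.70 in buds, and the phosphatase gene ABI2 was 1.11, -0.02 and 0.34. With scion bud replicate 1 and scion leaf replicate 3 both left out, 5 of the 14 were higher in leaves.

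Smaller sets completed the comparison. Both flavonol glycosyltransferases measured, UGT78D1 (4.53-fold) and UGT78D2 (2.76-fold), were higher in buds, and DFR, an anthocyanin enzyme, was not called, with 1.07, 2.05 and -0.58 in buds. The locus at5g44630, in the list of floral terpenes and nectary, was 2.38, 3.24 and 2.74 in buds and -2.31, -2.16 and -1.86 in leaves (29.8-fold, adjusted p = 5.6e-07). FAMA, which ends the stomatal lineage in guard cells, was 2.54-fold higher in leaves, and GL1, a MYB factor of trichomes named by the study, was 3.97-fold higher in buds. Expansins, which loosen cell walls, gave 4 of 19 higher in buds, led by EXPA15 at 1.2, 2.05 and 1.24 against -1.46, -2.06 and -1.21 (8.42-fold), and 2 higher in leaves. Of 42 MADS box probe sets named by the annotation, which leave out AP1 and the SEP genes, AGL18 was higher in buds and AGL42, AGL87 and at1g30260 were higher in leaves. Over all probe sets 10.5% were higher in buds and 7.91% in leaves. The MADS box counts are not above these shares, and that of expansins higher in leaves is near its share. AGL18 was at 2.03-fold and lost its call without scion bud replicate 1 (1.85) or scion leaf replicate 1 (1.92) or 3 (1.69). Of the 4 reference genes none was called, and their differences ran from -0.13 to 0.36.

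In the rootstock, 3121 probe sets (13.7%) were higher in buds and 2731 (12%) were higher in leaves, more than in the scion. Of the scion's 2390 bud calls 2137 were called the same way in the rootstock, which is 89.4% of the scion's and 68.5% of the rootstock's, and of its 1800 leaf calls 1580 were, 87.8% and 57.9%. None was called the opposite way. Across probe sets the differences of both stem parts had a Pearson r of 0.93, a description over genes, which are not independent. Of the calls in the scion, 1659 on the bud side and 1307 on the leaf side were larger in the rootstock. The test of the difference between the stem parts gave 0 probe sets by limma after adjustment (smallest adjusted p 0.0813), with 1760 at an unadjusted p of at most 0.05. After quantile normalization it gave 18 and with array weights 3915, the latter from a fit whose weights did not converge. Leaf arrays of the same replicate number deviated together in both stem parts (residual r of 0.342, 0.714 and 0.816), though scion leaf 2 and rootstock leaf 1 did so too (0.396). With the number as a block across the stem parts in leaves, a limma fit added after the values had been seen, 96 probe sets were called for the difference at an adjusted p of at most 0.05, and with a block in buds as well 111, of which 68 were in both.

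The gene groups sat differently against the rootstock, where no single gene passed the adjusted test without the block. For the tapetum and exine list the scion difference was the larger in 2 of 12 members (median 5.21 against 7.17), but in 2 of the 3 named by the annotation (6.03 against 5.07), for the mitotic list in 0 of 7 (2.13 against 3.50) and for floral organ identity in 0 of 6 (2.86 against 5.72). For the pollen coat the scion difference was the larger in 10 of 11 (3.87 against 2.14), with 3 of the 4 named by the annotation. For the plastid genome, where differences are negative, it was nearer 0 in 61 of 69 (-1.08 against -1.88). The plastid list medians were -0.40, -0.43 and -0.45 in scion buds and -1.39, -1.46 and -0.50 in rootstock buds. Rootstock bud replicate 3 thus lay with the scion buds. In leaves the medians were 0.73, 0.31 and 0.84 in the scion and 0.57, 0.63 and 0.89 in the rootstock. For floral organ identity the bud medians were alike, from 1.04 to 1.24 in the scion and from 1.09 to 1.23 in the rootstock. Its leaf medians were -1.56, -2.07 and -0.85 in the scion and -4.05, -4.34 and -4.23 in the rootstock. The paper reports SEP1 to SEP4 as higher in scion than in rootstock leaves. For tapetum and exine the leaf medians were -2.53, -4.33 and -1.67 against -4.78, -4.47 and -4.46. Its bud medians were 1.67, 2.42 and 2.18 against 2.66, 2.67 and 2.4. Most members of the tapetum, floral identity and pollen coat lists are named by tables that were chosen on the scion to rootstock difference, while 5 of the 7 mitotic genes and all 69 plastid genes are named by the annotation. In abscisic acid response 8 of 14 genes were higher in leaves of the rootstock, where ABI2 was -1.82, -1.75 and -1.91 in buds and 0.02, 0.20 and -0.46 in leaves.

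The 5 probe sets with the smallest p for this difference without the block were at1g30820, at3g45160, at1g06260, at5g44400 and LSH5, and all 5 were called by limma with the block in leaves (adjusted p from 0.00167 to 0.0302) and in both organs (0.0022 to 0.0475). So was SEP1, chosen here after its values had been seen, with a difference of 1.19 in the scion and 4.98 in the rootstock (adjusted p = 0.000202 with the block in leaves). The 5 were picked by their p for this same difference in the same arrays, and the block does not change the size of the difference. Their calls with the block are therefore no independent support. The cysteine proteinase gene at1g06260 was 3.96, 3.69 and 4.61 in scion buds and 1.38, 0.83 and 1.88 in rootstock buds, while the leaves of both lay between -1.27 and -0.83, so that its organ difference was 5.21 in the scion and 2.44 in the rootstock (unadjusted p = 3.72e-05). The locus at3g45160 was between -0.36 and 0.29 in all scion arrays and 2.28, 3.12 and 3.90 in rootstock leaves, against -0.03, -0.12 and -0.03 in rootstock buds. LSH5, a regulator of the ALOG family, was 0.29, 0.37 and 0.23 in scion buds and 1.57, 1.42 and 1.56 in rootstock buds. At at5g44400 the sign turned, with 1.03 ± 0.48 in the scion, not called, and -3.63 in the rootstock, and at1g30820 differed by 0.71 in the scion and 2.06 in the rootstock.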

How the data were processed

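Biotin-labelled cRNA from total RNA was hybridized to 12 ATH1 arrays, and the authors summarized the intensities with RMA in GeneSpring. The deposited values are log2 values of 22810 probe sets, centred so that the median of each over the arrays is 0, a step that the methods do not state. The 64 control probe sets were left out. The annotation of the array names a single gene for 13513 of the 22746 others and several for 503, tables of the study named 472 more, and 8258 stayed unnamed. Symbols were taken from RefSeq, and no source states what equal replicate numbers share. Same-numbered leaf arrays of scion and rootstock deviated together, with each residual correlation over 0.1. A blocked fit of the difference between stem parts was therefore added, while the main fit did not pair buds with leaves.

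The test was limma's moderated one (limma 3.58.1, R 4.3.3), fitted to all 12 arrays with 4 group means and 8 residual degrees of freedom. The one-way analysis of variance that the methods name, at the same thresholds, was run as an alternative, beside other scalings, thresholds, weights and fits without 1 array. Labels speak of replicates, and the paper of 3 independent biological ones, so p-values measure the spread between these samples.

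Gene lists were described by counts and medians. Many listed genes had no named probe set, so that 8 of 51 photosystem and electron transport genes were measured, for example. What is said of a list holds for its measured members. The members and lists were chosen with earlier results of these data known. Named genes were the 10 largest differences in each direction without overlap, up to 4 called members of each list with the smallest adjusted p, up to 2 called against its majority, up to 2 not called, the 5 with the smallest p between stem parts, and markers. Genes named through the study and other list members stand outside this rule, with their values already known when they were chosen. The number of arrays limits the precision. Python 3.11.15 with pandas 2.3.3 built the tables, and the fit was tested on simulated data first.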

Additional observations from a re-analysis of the deposited data

How the results depend on the processing

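The calls between scion buds and leaves (4190) stayed within 1.5 times under another scaling of the array medians (4160), quantile normalization (4799), array weights (5354), a robust prior (4152), the scion arrays alone (3474), the analysis of variance (4058) and an adjusted p of at most 0.01 (3083). They moved to 2219 with single-gene probe sets only, to 805 when tested against a log2 difference of 1, to 7439 with no fold threshold and to 1293 at a fold of at least 4. The single-gene setting tested only 13513 of the 22746 probe sets, so its count is lower for that reason too. The rootstock's 5852 moved to 3116, 2088, 9669 and 2242 under the same settings. Leaving out 1 array gave 3150 (without scion flower bud replicate 2) to 5341 (without scion leaf replicate 3) calls in the scion, 5166 to 6404 in the rootstock, and 0 to 34 for the difference between them (34 without scion leaf replicate 2). That difference, 0 without a block, was called in 18 probe sets after quantile normalization and in 3915 with array weights, which ran from 0.2 to 37.3 in a fit that did not converge. Its cause was not tested. Of 21 gene lists with at least 3 members named by the annotation, 7 had a majority of the members called one way, and 5 to 8 did when 1 array was left out.

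The replicate numbers did not pair buds with leaves. Residuals of scion bud and leaf arrays of the same number correlated at 0.263, -0.284 and 0.338, and those of bud 1 and leaf 2 at 0.454. With the number as a block within the stem part 4066 probe sets were called in the scion, of which 3968 were among the 4190, and 5812 in the rootstock, and this block moved no count by over 1.5 times. Across the stem parts the residuals of leaf arrays of the same number correlated at 0.342, 0.714 and 0.816. Scion leaf 2 and rootstock leaf 1 gave 0.396, above the value for number 1, so this pairing was not clean. Buds of the same number gave 0.0234, 0.0741 and 0.201. The block across the stem parts raised the calls for the difference from 0 to 96 in leaves alone and to 111 in both organs, alternatives chosen after seeing the data. Of the 142 genes taken by the rule, none reversed under any alternative run. The loss of calls among the 88 called was largest when tested against a log2 difference of 1 (45 lost) and at a fold of at least 4 (35), and 14 were lost without scion flower bud replicate 2.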

Other observations

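Some gene families were looked at whole after their values had been seen, so their counts are descriptions. Calcium and defence families lay on the side of the leaves. Of 7 glutamate receptor-like channels (GLR) 4 were higher in scion leaves and none in buds. GLR2.7 was 4.28, 4.88 and 0.15 in leaves and -0.18, -0.44 and -0.39 in buds (10.9-fold, adjusted p = 0.0368), and GLR2.8 was 3.84, 3.62 and 0.42 against -0.24, -0.34 and -0.53 (7.97-fold). Leaf replicate 3 again lay near the buds. Without 1 array between 1 and 5 members of the family were called, with 1 left without scion flower bud replicate 1 and 5 without scion leaf replicate 3. Among calmodulin-like genes (CML) 4 of 7 were higher in leaves, with CML37 at 4.12, 3.78 and -0.04 against -0.61, -0.54 and -0.60 (9.21-fold), and CML30 at 0.76, 1.03 and 1.16 against -0.67, -1.23 and -0.44 (3.39-fold). Of 9 U-box ubiquitin ligases (PUB) 4 were higher in leaves, led by PUB24 (5.58-fold), and 2 to 5 were when 1 array was left out. PUB23 lost its call without any scion array other than leaf replicate 3 (adjusted p from 0.0676 to 0.112) and without rootstock flower bud replicate 1 (0.0502) or 2 (0.0511). CML37 lost its call without any scion array other than leaf replicate 3 (adjusted p from 0.0554 to 0.0901), as did PUB24 (0.0636 to 0.117) and GLR2.7 (0.0732 to 0.123), the latter pair also without any rootstock bud array. GLR2.8 did so as well (0.0512 to 0.0914).

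In families of the cytoskeleton and chromatin most calls were on the side of the buds, though most members of the IQD, TRM and NET families were not called. Of 15 IQD proteins, scaffolds that bind calmodulin and microtubules, 6 were higher in buds, among them IQD26 at 0.65, 0.97 and 1.21 against -1.33, -1.39 and -0.65 (4.18-fold), and IQD22 was higher in leaves (3.38-fold). TRM22, of a family that orients microtubules at division, was 1.15, 1.73 and 1.39 against -1.52, -2.62 and -1.15 (9.1-fold), and 3 of 14 TRM genes were called, all higher in buds. NET1A, an actin-binding protein, was 7.84-fold higher in buds, where 3 of 10 NET genes were called (median of the family 0.43). Of 7 chromatin remodelling genes with a CHR name 5 were higher in buds in every fit without 1 array, and none in leaves, with CHR17 at 0.57, 1.23 and 0.73 against -1.15, -1.70 and -1.07 (4.44-fold, adjusted p = 0.00031). Of 29 serine carboxypeptidase-like genes 7 were higher in buds, scpl25 the most (7.23-fold), and scpl46 was higher in leaves (2.31-fold). Over all probe sets 10.5% were higher in buds and 7.91% in leaves.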
